A study of Mus musculus with 113 samples.

Results

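The heat shock genes described here are 10 genes of the 24006 in the expression tables: the Hsp70 family members Hspa1a, Hspa1b, Hspa8 and Hspa5, the Hsp90 genes Hsp90aa1 and Hsp90ab1, the Hsp110 gene Hsph1, the Hsp40 gene Dnajb1 and the transcription factor genes Hsf1 and Hsf2. They are a list of names, and all 10 were found in each of the 92 RNA-seq libraries with an FPKM file (fragments per kilobase of transcript, scaled to the mapped fragments of the library). The other 21 of the 113 samples of the series are not analysed here. The embryos were wild type mouse preimplantation embryos from superovulated females, and their libraries were made with Smart-seq2, a full-length method for very small amounts of RNA.

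The 32 pooled libraries came from zygotes injected with siRNA and collected at the 2-cell (2C), 4-cell (4C) or 8-cell (8C) stage, with 2 pools in each of 16 groups. The siRNAs targeted the nuclear receptor genes Nr5a2, Rarg, Nr1h3 and Nr2c2. One experiment compared a knockdown of all 4 genes (4KD, 5 µM of siRNA per gene) with control siRNA (NC, 20 µM) at 4C and 8C. At 8C, triple knockdowns that each left out the siRNA of 1 gene (3KD, 5 µM per gene) were set against NC at 15 µM, and knockdowns of 1 gene (5 µM) against NC at 5 µM. At 2C, Nr5a2 knockdown (20 µM) was set against NC at 20 µM. The other 60 libraries were single embryos at 2C or 8C, injected with base editor mRNA (BE, 100 ng/µL), with an sgRNA (100 ng/µL) against exon 3 of Nr5a2 that lets the editor create a stop codon, or with both. At each stage 8 embryos received BE alone, 8 the sgRNA alone and 14 received BE + sgRNA. The first 2 groups served as controls, and all embryos of this experiment were thus injected. The pools mixed several embryos, and nothing in the labels says that the pools of a group came from separate collections, so p-values measure only the spread between these libraries.

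Heat shock proteins are chaperones that bind unfolded proteins and help them reach or regain their shape. Hsp70 proteins work with J-domain partners such as DNAJB1, which stimulates their ATPase, and with nucleotide exchange factors such as HSPH1, while Hsp90 proteins act on clients that are already partly folded. HSPA8, HSP90AB1 and, in the lumen of the endoplasmic reticulum (ER), HSPA5 are made in unstressed cells, whereas Hspa1a and Hspa1b are strongly inducible by stress through HSF1. In mouse embryos Hspa1a and Hspa1b are also classic early transcripts of zygotic genome activation, without any heat shock, and HSF1 stored in the oocyte contributes to this activity.

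Depth in reads is unknown, since the files hold no counts. FPKM summed to 83392 to 556462 per library, and 5472 to 11921 genes reached 1 FPKM. The stage labels were checked on marker genes. The summed FPKM of 5 markers of 2C embryos (the Zscan4 genes among them) had a median of 517 in the 34 libraries labelled 2C and of 7.70 in the 54 labelled 8C, and all 5 fell from 2C to 8C in single control embryos. Of 7 genes of later stages and first lineages, 5 rose. The stage of 3 libraries is in doubt: the file headers of 1 embryo labelled 2C (sgRNA replicate 8) and 2 labelled 8C (BE + sgRNA replicates 13 and 14) name a 4-cell library. Their 2C marker sums were 2.67 for the first and 34.3 and 180 for the others. Stage results are given with and without them. The headers also split the single embryos into libraries named eBE (17 at 2C, 14 at 8C) and BE4 (12 and 14), called runs here. No label says what these names stand for, and whether the injected editor differed between them is not known. At 2C the controls were 4 BE and 7 sgRNA embryos in eBE and 4 BE embryos with no sgRNA embryo in BE4. The kinds of control can thus be compared within eBE alone, and the runs of controls among BE embryos alone. Within BE4 the 2C controls, and the stage change of controls, rest on BE embryos alone. The summed FPKM of 8 markers of cumulus and granulosa cells, which surround the oocyte, was 4.15 to 75.8 in 2C libraries (median 25.5) and 1.03 to 49.4 in 8C libraries (median 13.4). Of these, 7 were below 1 FPKM in every 8C library and 1 in every 2C library, Ptx3, Inhba and Fshr were listed at 0 in every 8C library, and the part of such cells in the stage results was not tested. Of the targeted genes, Nr5a2 was at 3.90 to 12.8 FPKM in the 10 pools at 8C that received its siRNA and at 27.1 to 50.2 in the 14 that did not. In the single knockdowns Nr5a2 (-2.06 ± 0.35) and Nr2c2 (-2.67 ± 0.38) were called lower, and Rarg and Nr1h3 were not called in theirs. In the BE + sgRNA embryos Nr5a2 was not lower than in the controls (median 47.9 against 43.3 FPKM at 8C), and a stop codon in the transcript would not be seen in FPKM.

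In the mm9 genome, the build of the FPKM tables, Hspa1b (chr17:35093381-35096183) and Hspa1a (chr17:35106144-35109069) lie side by side on the minus strand, and Hsp90ab1 lies on the same chromosome (chr17:45704724-45710220). Hspa5 is at chr2:34627490-34632051, Hsph1 at chr5:150416862-150438951, Dnajb1 at chr8:86132074-86135801, Hspa8 at chr9:40609067-40613283, Hsf2 at chr10:57206191-57232939, Hsp90aa1 at chr12:111928815-111940938 and Hsf1 at chr15:76307865-76331402. Of all 50-base windows of their longest transcripts, 61% in Hspa1a and 62.1% in Hspa1b also occur in the other gene. Reads from these windows can be assigned to either copy, so the split of the signal between Hspa1a and Hspa1b is uncertain, and their sum is given as well. For the other 8 genes the share was 0, except for 0.542% in Dnajb1.

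The promoters of the pair show the same likeness, and each holds a match to a short, 8-base spelling of the heat shock element. The 250 bases before each RefSeq start are printed 5′ to 3′ with the heat shock element GAANNTTC in capitals, at mm9 chr17:35109102-35109351 (Hspa1a) and chr17:35096184-35096433 (Hspa1b), both on the minus strand.
Hspa1a: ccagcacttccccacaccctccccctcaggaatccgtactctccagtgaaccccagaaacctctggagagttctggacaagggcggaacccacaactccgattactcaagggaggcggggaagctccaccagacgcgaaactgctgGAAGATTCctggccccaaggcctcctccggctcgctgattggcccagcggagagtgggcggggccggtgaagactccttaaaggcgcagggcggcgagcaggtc
Hspa1b: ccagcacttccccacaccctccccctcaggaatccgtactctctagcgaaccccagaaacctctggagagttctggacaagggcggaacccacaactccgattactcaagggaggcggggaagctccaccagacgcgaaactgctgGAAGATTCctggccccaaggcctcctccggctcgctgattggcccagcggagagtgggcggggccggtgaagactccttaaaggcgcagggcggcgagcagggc
The promoters were the same at 247 of 250 bases (98.8%). They differed at C44T, T47C and T249G, with positions counted from the first printed base, the Hspa1a base first and the Hspa1b base last. The element begins 104 bases before the start in both.

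Hsph1 and Hspa5 were the other members with a searched element, shown in capitals in 30 bases around it because the genes differ in which stress pathway is known to act on them. Hsph1 holds the other spelling of the heat shock element, TTCNNGAA, 33 bases before one RefSeq start (54 before another), and Hspa5 holds an ER stress element, CCAAT and CCACG with 9 bases between them, 65 bases before its start.
Hsph1 (mm9 chr5:150438926-150438955, minus strand): gggtagaatctTTCTCGAAggctcgagaag
Hspa5 (mm9 chr2:34627540-34627569, plus strand): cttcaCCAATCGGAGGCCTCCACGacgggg
Both windows reach into the span that the mm9 annotation gives the gene. The sequences come from RefSeq promoters of GRCm38.p6, placed in mm9 by an exact match at 1 site each, and 6 of the 10 genes had an entry (Hspa1a, Hspa1b, Hspa5, Hsph1, Dnajb1 and Hsf2). Of 32851 promoters searched on both strands, 6.69% held GAANNTTC, 7.17% TTCNNGAA, 12.8% either of these spellings and 0.113% the ER stress element. The NR5A2 motif AAGGTCA, in 4.08% of promoters, was in 0 of the 6. A match is a description of the letters and not of binding.

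The 10 genes went different ways between 2C and 8C. The cytosolic chaperone genes Hspa8, Hsp90ab1 and Hsp90aa1 were 9 to 32 times higher at 8C by the medians of single embryos. In single controls Hsf2 and Dnajb1 rose as well, Hspa1a, Hspa5 and Hsf1 fell, and Hspa1b and Hsph1 were not called. Knockdown and base editing gave no called change in any of the 10 genes, but the lower Rarg and Nr1h3 in their own knockdowns went uncalled too. A change was called at an adjusted p under 0.05 in limma, with Benjamini-Hochberg adjustment over all genes tested, and fold changes are differences of log2(FPKM + 1), which understates the change of genes near 0. In single control embryos 8 of the 10 genes were called between 2C and 8C, 5 higher and 3 lower, where 72.5% of all genes tested were called (28.9% higher and 43.6% lower; 4540 genes higher and 4341 lower with quantile normalization, against 3753 and 5668). In BE + sgRNA embryos 8 were called (4 higher, 4 lower; 64.4% of all genes). In NC pools 4 were called from 2C to 4C (28.2%) and 8 from 2C to 8C (46.6%). These counts are near or not far above those of all genes, so the size and direction of each gene carry more than the count. The median change of the 10 genes from 2C to 8C in single controls was 0.57, beside -0.31 for all genes tested.

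**Figure D1:**
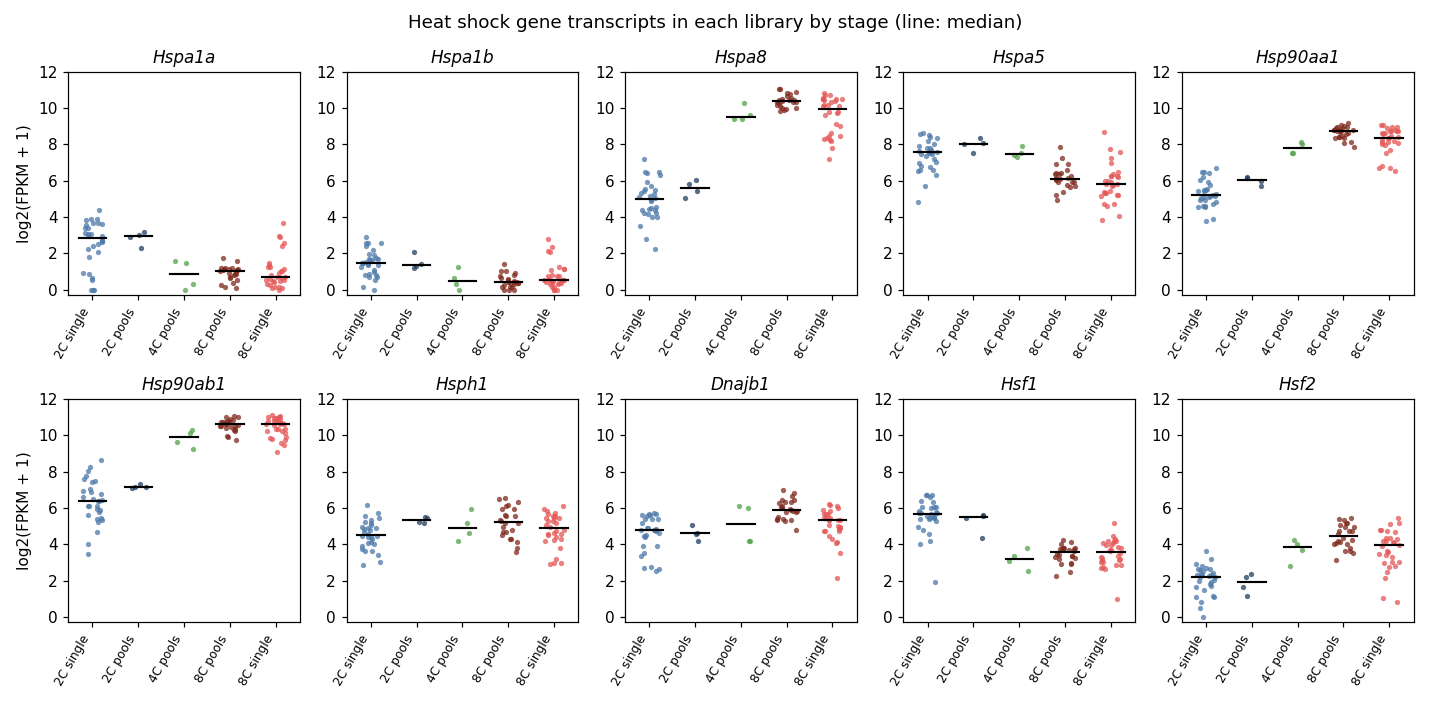
Level of each heat shock gene in every library, as log2(FPKM + 1), for 2C single embryos (30), 2C pools (4), 4C pools (4), 8C pools (24) and 8C single embryos (30), with a line at the median. Hspa8 and Hsp90ab1 at 8C sit above every 2C library, while Hspa1a, Hspa5 and Hsf1 sit lower at 8C.

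The order of the levels changed with stage. FPKM is scaled by transcript length, so levels of different genes can be set side by side. In 2C single embryos the order by median FPKM was Hspa5, Hsp90ab1, Hsf1, Hsp90aa1, Hspa8, Dnajb1, Hsph1, Hspa1a, Hsf2 and Hspa1b. All neighbours in this order overlapped across embryos, and the most regular steps were Hsph1 over Hspa1a, in 28 of 30 embryos, and Hspa5 over Hsp90ab1, in 27 of 30. In 4C and 8C pools the order was Hsp90ab1, Hspa8, Hsp90aa1, Hspa5, Dnajb1, Hsph1, Hsf2, Hsf1, Hspa1a and Hspa1b. In the 8C pools the ranges of Hspa8 and Hsp90aa1, of Hsp90aa1 and Hspa5, and of Hsf1 and Hspa1a did not overlap, while the other neighbours did. By rank among all genes, with 1 the most abundant, Hsp90ab1 went from a median of 596.5 at 2C to 20.5 at 8C in single embryos, Hspa8 from 1805.5 to 47, and Hspa5 from 176 to 1336.5. FPKM is a share of the library, so a fall at 8C is relative to the other transcripts, and in a whole embryo fewer cells with a transcript and less of it per cell cannot be told apart.

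Hspa8, which encodes the constitutive cytosolic Hsp70, was at 3.70 to 145.8 FPKM in the 30 single 2C embryos (median 31.2) and at 146.0 to 1807 in the 30 single 8C embryos (median 1001). The ranges met without overlapping, and the highest 2C value came from the embryo with the 4-cell header. Without it the 2C embryos ended at 88.1 FPKM. The 2C NC pools were at 64.0 and 41.7 FPKM and the 4C NC pools already at 1252 and 683. The change from 2C to 8C in single controls was 5.15 ± 0.36 on the log2 scale (SE; limma, adjusted p = 3.26e-19), from 2C to 4C in NC pools 4.14 ± 0.50 (adjusted p = 0.000761), and within each run 5.84 (eBE) and 5.36 (BE4). Most of the rise thus stood between the 2C and 4C pools, although the 2C pools were a separate experiment from the 4C and 8C pools, and experiment and stage cannot be told apart there.

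Both Hsp90 genes rose as well. Hsp90ab1, the constitutive form, was at 10.0 to 401.1 FPKM in single 2C embryos (median 81.7) and at 534 to 2244 in single 8C embryos (median 1571), with no overlap. Hsp90aa1, the form that is also inducible, was at 12.9 to 104.3 FPKM at 2C (median 35.5) and at 91.3 to 547.6 at 8C (median 331.5), and 28 of 30 8C embryos were above the highest 2C value. Without the 3 libraries in doubt the ranges of Hsp90aa1 did not overlap. In pools, Hsp90ab1 was at 143 and 141 FPKM in 2C NC, at 1138 and 608 in 4C NC and at 849.8 and 1837 in 8C NC. The changes in single controls were 4.45 ± 0.33 for Hsp90ab1 (limma, adjusted p = 1.97e-18) and 3.33 ± 0.26 for Hsp90aa1 (adjusted p = 1.08e-17). The ratio of Hsp90ab1 to Hsp90aa1 had a median of 2.30 in single 2C embryos and 4.73 in single 8C embryos, with overlapping ranges.

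The levels of these 3 genes at 8C also differed between runs. Hspa8 was at 898.7 to 1807 FPKM in the 14 eBE embryos (median 1444) and at 146.0 to 1142 in the 14 BE4 embryos (median 452). Hsp90aa1 had medians of 425 (eBE) and 298 (BE4), and Hsp90ab1 of 1742 and 1266. Hsf2, at 19.1 and 7.23, and Hsph1, at 40.4 and 19.6, also had their lower median in BE4. Each run held 8 controls and 6 edited embryos at 8C, and the lowest FPKM sum of all libraries, 83392, was a BE4 library at 8C. What separates the runs was not tested. Every call for Hspa8, Hsp90ab1 and Hsp90aa1 from 2C to 8C was made within each run too.

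Hspa1a and Hspa1b were highest at 2C. Hspa1a was at 7.12 and 6.61 FPKM in the 2C NC pools and at 3.98 and 8.22 in the 2C Nr5a2 KD pools, against 1.73 and 0.235 in 4C NC and 1.23 and 1.30 in 8C NC. All 4 of the 2C pools were above all 28 later pools. Hspa1b was at 1.63 and 1.32 FPKM in 2C NC, at 0.575 and 0.234 in 4C NC, and at 0 and 0.299 in 8C NC. In single embryos Hspa1a ran from 0 to 20.3 FPKM at 2C (median 6.31) and from 0 to 11.9 at 8C (median 0.627), so the stages overlapped from end to end while the medians stood at a ratio of 0.0994. It was listed at 0 in 3 of 30 2C embryos.

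The fall of Hspa1a was called in all 4 stage contrasts: -0.99 ± 0.37 in single controls (limma, adjusted p = 0.0149), -1.99 ± 0.40 in BE + sgRNA embryos (adjusted p = 1.73e-05), -2.10 ± 0.52 from 2C to 4C in NC pools (adjusted p = 0.0141) and -1.99 ± 0.43 from 2C to 8C in NC pools (adjusted p = 0.00356). The call from 2C to 4C was lost without 4C NC replicate 2 (-1.52, adjusted p = 0.0955 in limma) and without either 2C pool (adjusted p = 0.068 and 0.061). In single controls Hspa1a was called within the eBE run (11 embryos at 2C and 8 at 8C, -1.59 ± 0.41, adjusted p = 0.0012 in limma). It was not called within the BE4 run (-0.62 ± 0.78, adjusted p = 0.53). That contrast held BE embryos alone, 4 at each stage, and 1 of those at 8C stood out at 11.9 FPKM. Hspa1b was called in BE + sgRNA embryos (-1.08 ± 0.26, adjusted p = 0.000274) and from 2C to 8C in NC pools (-1.01 ± 0.27, adjusted p = 0.0115). It was not called in single controls (-0.35 ± 0.24, 95% confidence interval -0.84 to 0.13, adjusted p = 0.189). Within the eBE run it was called lower there (-0.86 ± 0.23, adjusted p = 0.00153), while quantile normalization gave it a value above 0 (0.30). The Hspa1a level was above the Hspa1b level in 25 of the 29 2C embryos with a ratio (median ratio 3.66) and in 18 of 27 at 8C (median 1.41), with the reservation on shared reads given above.

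**Figure D2:**
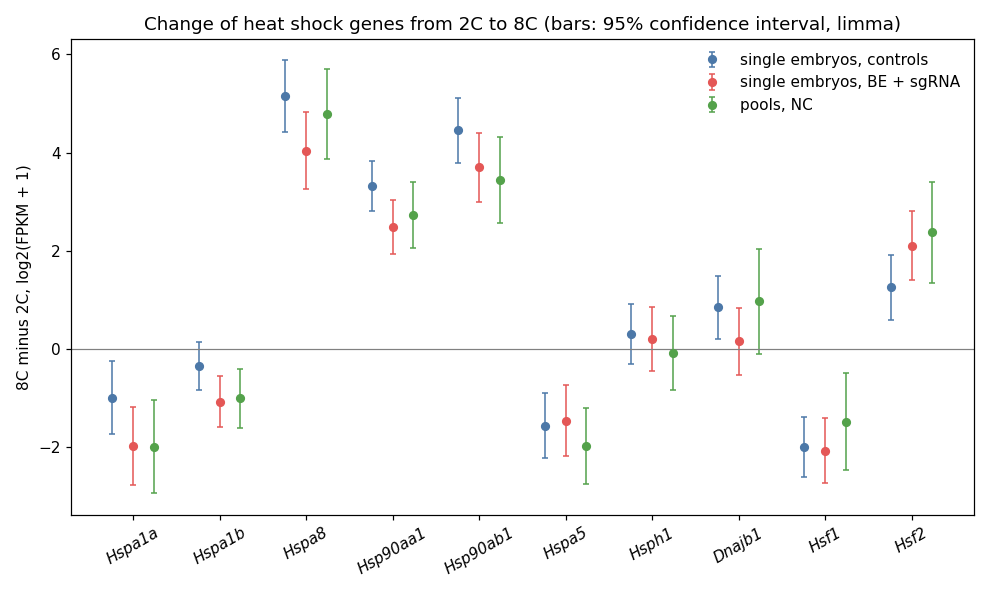
Change of each heat shock gene from 2C to 8C, as the difference of log2(FPKM + 1), in single control embryos (16 and 16), single BE + sgRNA embryos (14 and 14) and NC pools (2 and 6), with 95% confidence intervals from limma. Hspa8, Hsp90aa1, Hsp90ab1 and Hsf2 lie above 0 and Hspa1a, Hspa5 and Hsf1 below 0 in all 3 series.

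Hspa5, which encodes the ER chaperone BiP, moved against Hspa8. It was at 27.2 to 397.2 FPKM in single 2C embryos (median 187.7) and at 13.3 to 405.4 at 8C (median 55.6). The highest 8C value belonged to a library with a 4-cell header, and without these the 8C embryos ended at 191.8. The pools were at 265 and 184 FPKM in 2C NC, 155 and 182 in 4C NC, and 41.4 and 59.5 in 8C NC. Of the 24 pools at 8C, 23 were below the lowest 4C pool. The change was -1.56 ± 0.34 in single controls (limma, adjusted p = 4.19e-05) and -1.99 ± 0.35 in NC pools (adjusted p = 0.00121). From 4C to 8C, within 1 experiment, it was -1.73 ± 0.38 in NC (unadjusted p = 0.00118) and -1.29 in 4KD, but no gene was called in either contrast (0.0% of all genes). An unadjusted p under 0.05 was found for 3 of the 9 heat shock genes tested in NC (7.41% of all genes) and 4 in 4KD (7.67%), among them Hsp90aa1 and Hsf2 in both, and for none in the difference between these changes (2.47%).

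The ratio of Hspa8 to Hspa5, which needs no comparison across libraries, put the switch in each library. Its median was 0.195 in single 2C embryos, 0.218 in 2C pools, 4.15 in 4C pools, 20.5 in 8C pools and 18.0 in single 8C embryos. It was above 1 in 1 of 30 single 2C embryos (1.59, the embryo with the 4-cell header) and in 29 of 30 single 8C embryos, and without the libraries in doubt the ranges ended at 0.44 (2C) and began at 1.83 (8C). Hspa8 against the sum of Hspa1a and Hspa1b went from a median of 4.09 at 2C to 757 at 8C in single embryos, and was at least 17.6 in each of the 30 8C embryos.

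**Figure D3:**
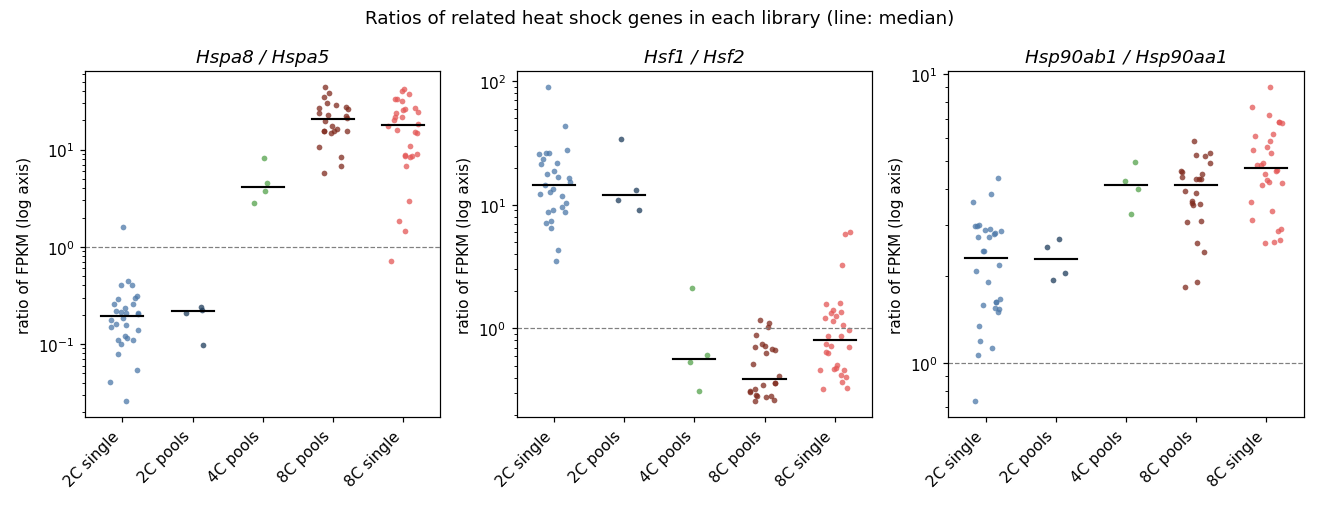
Ratio of the FPKM of Hspa8 to Hspa5, Hsf1 to Hsf2 and Hsp90ab1 to Hsp90aa1 in each library (log axes) by stage, with a line at the median and a dashed line at 1. The first ratio lies below 1 in all but 1 of the 2C libraries and above 1 in all but 1 of the 8C libraries, and the second mostly moves the other way.

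The transcription factor genes changed places. Hsf1, the main regulator of the heat shock response, was at 46.1 and 19.3 FPKM in 2C NC, at 9.39 and 12.8 in 4C NC and at 8.88 and 6.65 in 8C NC, with all 4 of the 2C pools above all later pools. Hsf2, which forms trimers with HSF1 and is known for roles in development, was at 4.23 and 2.13 FPKM in 2C NC, at 17.7 and 6.05 in 4C NC and at 31.9 and 25.3 in 8C NC, with all 2C pools below all later pools. In single controls Hsf1 changed by -2.0 ± 0.31 (limma, adjusted p = 7.41e-08) and Hsf2 by 1.25 ± 0.33 (adjusted p = 0.000652). From 2C to 4C in NC pools neither was called (adjusted p = 0.0857 and 0.0715). Hsf1 was called there with median-ratio scaling (adjusted p = 0.0493) and without 2C NC replicate 2 (0.0468), and Hsf2 with quantile normalization (0.0296) and without 4C NC replicate 2 (0.0377). From 2C to 8C in NC pools both were called, Hsf1 at -1.48 ± 0.45 (adjusted p = 0.0196) and Hsf2 at 2.38 ± 0.47, but the Hsf1 value was -0.87 (adjusted p = 0.202) without 2C NC replicate 1. Hsf1 exceeded Hsf2 in 29 of 29 single 2C embryos with a ratio (median 14.5). At 8C it did so in 12 of 30 single embryos (median 0.809) and 3 of 24 pools (median 0.388), and the single embryos differed by run, with 2 of 14 in eBE and 9 of 14 in BE4. Oocyte transcripts fell over the same stages: the summed FPKM of 7 oocyte genes fell from a median of 1364 in 2C libraries to 54.5 in 8C libraries, and their part in the lower Hsf1, Hspa5 and Hspa1a values was not tested.

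The levels of the co-chaperone genes Hsph1 and Dnajb1 overlapped between 2C and 8C in single embryos and in pools. Hsph1 was at 35.1 and 45.2 FPKM in 2C NC, 35.8 and 24.1 in 4C NC and 34.7 and 45.5 in 8C NC. In single embryos its medians were 21.7 at 2C and 28.5 at 8C, with ranges of 6.26 to 71.1 and 6.43 to 68.3. The change in single controls was 0.30 ± 0.31 (95% confidence interval -0.31 to 0.90; limma, adjusted p = 0.385), and within the eBE run it was called (0.80 ± 0.31, adjusted p = 0.022). Dnajb1 was at 32.9 and 23.1 FPKM in 2C NC, 67.2 and 16.9 in 4C NC and 53.8 and 57.3 in 8C NC. It rose in single controls by 0.85 ± 0.32 (adjusted p = 0.0159), a call that was lost with median-ratio scaling (0.55, adjusted p = 0.080), and was not called in BE + sgRNA embryos (0.15 ± 0.34, adjusted p = 0.713) or NC pools (0.97 ± 0.48, adjusted p = 0.122).

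Edited embryos and controls shared the direction of change in all called genes. The difference between the 2C to 8C change of BE + sgRNA embryos and that of controls was called in 0 of the 10 genes (0.0385% of all genes) and had an unadjusted p under 0.05 in 3 (9.68% of all genes): Hspa8 (-1.11, adjusted p = 0.493 in limma), Hsp90aa1 (-0.84, adjusted p = 0.46) and Hspa1b (-0.73, adjusted p = 0.50).

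The chaperone systems around the 10 genes were counted over lists that exclude them. All 8 subunit genes of the CCT chaperonin, the ring that folds actin and tubulin, rose from 2C to 8C in single controls (median 2.28), with Cct7 at 3.39 ± 0.29 and Cct4 at 3.34 ± 0.42. Of 19 co-chaperones of Hsp70 and Hsp90, 13 rose and 3 fell (median 1.02). Hspbp1, a nucleotide exchange factor, rose by 2.83 ± 0.43, while Fkbp5, an Hsp90 partner in steroid receptor complexes, changed by -3.81 ± 0.23. Of 23 other cytosolic heat shock genes 11 rose and 7 fell, led by Dnaja1 (3.61 ± 0.29) and by Stip1 (2.85 ± 0.44), which links Hsp70 to Hsp90. Of 6 mitochondrial chaperone genes 4 rose, led by Trap1, the mitochondrial Hsp90 (2.44 ± 0.34), and Hspa9, the mitochondrial Hsp70 (1.90 ± 0.31).

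The ER and stress lists held more genes that fell than genes that rose. Of 22 genes of ER chaperones and the unfolded protein response 2 rose and 11 fell (median -0.63), with Ddit3, the stress transcription factor CHOP, at -2.94 ± 0.44 and Ern1, the sensor IRE1, at -2.46 ± 0.25. Of 13 immediate early and stress genes 1 rose and 8 fell (median -1.44), led by Gadd45a (-4.49 ± 0.31) and Gadd45b (-3.58 ± 0.44), genes of growth arrest. Of 4 other genes named after the heat shock factors 2 fell, Hsf2bp (-2.33 ± 0.32) and Hsf5 (-1.41 ± 0.19). Beside these, the median over all genes tested was -0.31, and 28.9% were called higher and 43.6% lower, so the share of the ER list that fell was near that of all genes. In NC pools the counts from 2C to 8C were 8 of 8 CCT genes higher, 9 of 22 ER genes lower and 0 higher, and 6 of 13 immediate early genes lower and 1 higher. Among all genes tested in that contrast 18.6% were called higher and 27.9% lower.

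Knockdown of all 4 nuclear receptors was tested at 4C and 8C. None of the 9 genes that passed the filter on low values was called at either stage in limma (0.0% of all genes in both), and none had an unadjusted p under 0.05, as 5.82% and 7.48% of all genes did. Hspa1b did not pass the filter. At 8C both 4KD pools were above both NC pools for Hspa5 (70.5 and 96.9 FPKM against 41.4 and 59.5), Hsph1 (70.0 and 61.5 against 34.7 and 45.5) and Dnajb1 (79.4 and 85 against 53.8 and 57.3), as were 18.6% of genes. Hspa1a was below (0.296 and 0.449 against 1.23 and 1.30), as were 20.2% of genes. The changes were 0.72 ± 0.38 for Hspa5 (adjusted p = 0.763), 0.71 ± 0.56 for Hsph1, 0.56 ± 0.71 for Dnajb1 and -0.73 ± 0.62 for Hspa1a (adjusted p = 0.894), so 2 pools a group leave wide limits. Hspa8, Hsp90aa1 and Hsp90ab1 changed by 0.12, -0.04 and -0.08 at 8C, with a 95% confidence interval of -0.72 to 0.95 for Hspa8. At 4C Hsf1 was the gene whose pools separated, at 4.8 and 7.33 FPKM in 4KD and 9.39 and 12.8 in NC (15.8% of genes were below in this way).

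The 4 triple knockdowns shared their NC pools. Against NC no heat shock gene was called in the 3KD that spared Nr5a2 (0.0% of all genes), Rarg (0.0565%), Nr1h3 (0.00941%) or Nr2c2 (0.0%), and Hspa1b did not pass the filter. None had an unadjusted p under 0.05 either, as 2.36%, 6.25%, 6.95% and 7.37% of all genes did. Hsph1 was at 46.6 and 34.7 FPKM in NC. It was at 26.4 and 21.9 in the 3KD without Nr5a2 siRNA, at 47.3 and 68.7 in that without Rarg siRNA, at 24.9 and 88.9 in that without Nr1h3 siRNA and at 61.6 and 79.1 in that without Nr2c2 siRNA. The 3KD that spared Nr5a2 had 2 of the 3 lowest values, and the highest came from groups with Nr5a2 siRNA. Its difference from the mean of the other 3KD groups was -1.22 ± 0.45 (95% confidence interval -2.21 to -0.22; limma, unadjusted p = 0.0211, adjusted p = 0.378), where 0.282% of all genes were called (0.0282% lower; 30 genes, and 0 to 2 when any 1 of the 8 3KD pools was left out) and 10.1% had an unadjusted p under 0.05. Pools of the same replicate number deviated together in this experiment, and with a replicate block the adjusted p for Hsph1 was 0.122, with 0 of the heat shock genes called in any contrast and 262 of all genes in this one.

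Dnajb1 was at 61.6 and 54.3 FPKM in the same NC pools, at 56.8 and 64.1 without Nr5a2 siRNA and at 65.9 to 114 in the other 3KD pools, so that all 6 pools of the other 3KD groups were above both NC pools. Hspa5 was at 64.9 and 71.2 FPKM in NC, at 121 in both pools without Nr2c2 siRNA and at 150.0 and 83.6 in those without Nr1h3 siRNA. These separations stood beside like ones in 19.4% (Rarg spared), 19.6% (Nr1h3 spared) and 21.1% (Nr2c2 spared) of all genes. Hsp90aa1 was below NC in both pools without Rarg siRNA (325 and 424 against 439.8 and 497 FPKM), as were 13.1% of genes.

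Single knockdowns at 8C shared 1 pair of NC pools as well. No heat shock gene was called in the Nr5a2 KD (2.75% of all genes), Rarg KD (0.00984%), Nr1h3 KD (0.00984%) or Nr2c2 KD (0.0787%). An unadjusted p under 0.05 was found for 1, 1, 0 and 1 of them in these comparisons, beside 18.1%, 3.76%, 2.92% and 4.19% of all genes. Hsp90ab1 was at 2149.7 and 2095 FPKM in NC, and at 1274 and 1388 in Nr5a2 KD, 1547 and 1455 in Rarg KD, 1802 and 1881 in Nr1h3 KD and 1721 and 2076 in Nr2c2 KD. All 8 knockdown pools were below both NC pools, as were those of 34.4% (Nr5a2), 20.4% (Rarg), 19.7% (Nr1h3) and 36.3% (Nr2c2) of all genes. The 4 comparisons share these 2 NC pools, so their directions are not separate observations. The Nr5a2 KD pools were the lowest, and their change was -0.67 ± 0.23 (95% confidence interval -1.19 to -0.16; limma, unadjusted p = 0.0146, adjusted p = 0.155), beside a median of -0.22 over all genes tested. Hspa8 and Hsp90aa1 were also below NC in Nr5a2 KD, as were 34.4% of all genes.

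Hsph1 was at 29.6 and 37.8 FPKM in these NC pools, at 93.9 and 40.2 in Nr5a2 KD and at 10.9 to 24.8 in the 6 pools of the other knockdowns. The Nr5a2 KD pools were above NC (13.4% of genes were), and the pools of Rarg KD, Nr1h3 KD and Nr2c2 KD were below (20.4%, 19.7% and 36.3% of genes). The change was 0.86 ± 0.43 in Nr5a2 KD (adjusted p = 0.33 in limma) and -1.41 ± 0.43 in Nr2c2 KD (unadjusted p = 0.00718, adjusted p = 0.93). Hspa5 was at 230.2 and 54.2 FPKM in Nr5a2 KD against 66.3 and 36.5 in NC, and Dnajb1 at 129 and 56.4 against 38.4 and 69.4. The first Nr5a2 KD pool thus stood far above the second for Hspa5, Hsph1 and Dnajb1, and most of the difference from NC came from that library. In Rarg KD Hsp90aa1 was at 337 and 273 FPKM against 498 and 484 (-0.69 ± 0.30, unadjusted p = 0.0395).

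Pools with and without Nr5a2 siRNA were set side by side after these values were seen, as a description within each experiment. The groups are unequal: 8 of the 14 pools without it and 2 of the 10 pools with it came from the single knockdowns. Hsph1 was at 61.5 and 70.0 FPKM with Nr5a2 siRNA and at 34.7 and 45.5 without it in the 4KD experiment, and at 24.9 to 88.9 (6 pools) and 21.9 to 46.6 (4 pools) in 3KD. In the single knockdowns it was at 40.2 and 93.9 with Nr5a2 siRNA and at 10.9 to 37.8 in the 8 pools without it, where NC held the 2 highest values. Hsph1 thus overlapped in 3KD alone. Dnajb1 was at 65.9 to 114 and 54.3 to 64.1 FPKM in 3KD, and at 56.4 and 129 and 26.1 to 69.4 in the single knockdowns, and it overlapped in the latter alone. Hspa5 overlapped in 3KD and the single knockdowns. Hspa8, Hsp90aa1, Hspa1b, Hsf1 and Hsf2 overlapped in all 3 experiments. Hspa1a was lower with Nr5a2 siRNA, without overlap, in 4KD alone (0.296 and 0.449 against 1.23 and 1.30 FPKM). Hsp90ab1 was so in the single knockdowns alone (1274 and 1388 against 1455 to 2149.7). In 4KD 18.6% of all genes were above and 20.2% below in this way. For 3KD and the single knockdowns the share of all genes was not counted. Whether the separations there are more common among the 10 genes than among all genes is thus unknown. Summed oocyte transcripts moved with these groups in 2 of the experiments: they were at 92.6 to 189.9 FPKM in the 3KD pools with Nr5a2 siRNA and 26.0 to 61.5 in the 3KD and NC pools without it, and at 86.6 and 134 in Nr5a2 KD and 34.6 to 71.3 in the single knockdown and NC pools without it, while 4KD (46.7 and 77.4) and its NC (43.3 and 68.5) were alike in range. Their part in the heat shock gene values was not tested.

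**Figure D4:**
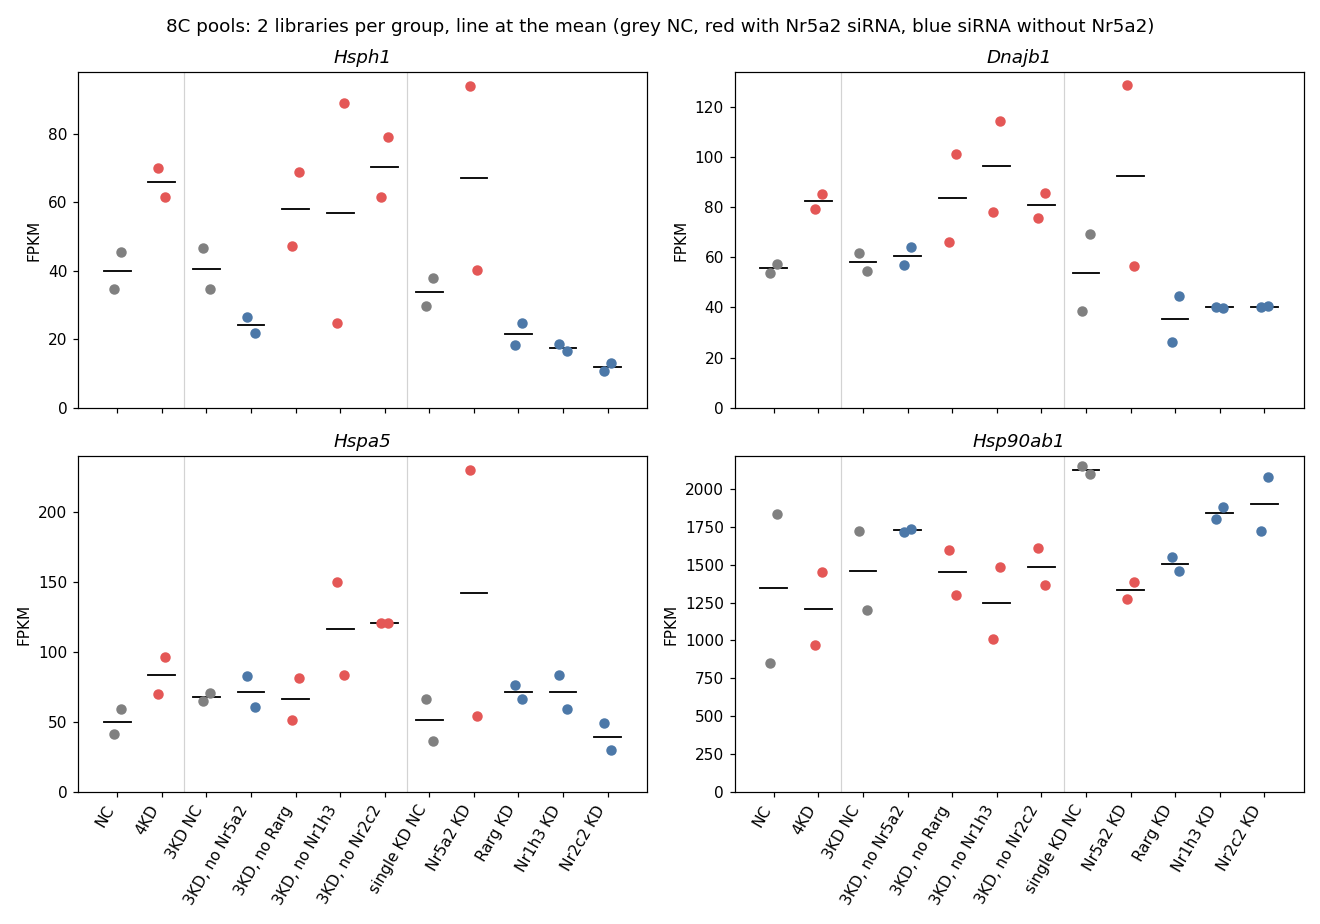
FPKM of Hsph1, Dnajb1, Hspa5 and Hsp90ab1 in each 8C pool (2 per group, line at their mean), with vertical lines between the 4KD, 3KD and single knockdown experiments and colours for NC, siRNA sets with Nr5a2 and sets without it. For Hsph1 the single Nr5a2 KD pools, at 93.9 and 40.2, lie above their NC pools and the Rarg, Nr1h3 and Nr2c2 KD pools below.

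Of 95 genes on the chaperone and stress lists, 82 were tested in the 8C Nr5a2 KD and 2 were called (2.44%), no more than among all genes (2.75%). They are Bag3 and Bag2, of the BAG family of Hsp70 nucleotide exchange factors. Bag3, a target of HSF1 that directs damaged proteins to autophagy, was at 23.2 and 48.8 FPKM in NC and at 3.18 and 2.42 in Nr5a2 KD (-3.20 ± 0.47; limma, adjusted p = 0.00566). Bag2, an inhibitor of the ubiquitin ligase CHIP, was at 0.250 and 0.350 FPKM in NC and at 4.13 and 7.95 in Nr5a2 KD (2.38 ± 0.55, adjusted p = 0.0425). The adjusted p of Bag3 was 0.12 without NC replicate 2 and 0.057 without Nr5a2 KD replicate 2, and that of Bag2 was 0.077 to 0.27 whichever of the 4 pools was left out, and 0.053 with a replicate block. In the 4KD experiment, where no gene was called, Bag3 was at 14.1 and 28.3 FPKM in 8C NC and 6.43 and 4.64 in 4KD, and Bag2 was listed at 0 and at 0.327 in NC and stood at 4.8 and 3.31 in 4KD. In the 3KD experiment every group overlapped with NC for Bag3. It was at 29.5 and 5.38 FPKM in NC, 21.3 and 11.4 without Nr5a2 siRNA, 14.6 and 4.64 without Rarg siRNA, 7.57 and 5.94 without Nr1h3 siRNA and 23.5 and 5.50 without Nr2c2 siRNA. Bag2 was listed at 0 and at 0.332 in NC, at 0 and 2.64 without Nr5a2 siRNA, at 2.45 and 2.96 without Rarg siRNA, at 0.787 and 2.93 without Nr1h3 siRNA and at 0 and 2.65 without Nr2c2 siRNA. No other gene of the chaperone and stress lists was called in any knockdown or editing comparison.

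At 2C, neither gene of the early zygotic pair was called in Nr5a2 KD. Hspa1a was at 3.98 and 8.22 FPKM against 7.12 and 6.61 in NC (-0.21 ± 0.49, 95% confidence interval -1.37 to 0.94), and Hspa1b at 1.52 and 3.24 against 1.63 and 1.32 (0.40 ± 0.52). For Hspa1a 1 KD pool was below both NC pools and 1 above, and for Hspa1b 1 was between them and 1 above. None of the 10 genes was called (0.0167% of all genes). Hsp90aa1 was the 1 gene whose knockdown pools were both below NC, at 51.6 and 63.4 against 74.0 and 69.0 FPKM, as were 8.28% of genes (-0.32 ± 0.36). Nr5a2 itself was at 2.72 and 6.13 FPKM against 19.4 and 24.3.

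In base edited 2C embryos the pair was higher than in the controls without passing the adjusted threshold. Hspa1a had its lowest, median and highest values at 0, 6.4 and 20.3 FPKM with BE alone, at 0, 1.70 and 11.5 with sgRNA alone, and at 0.556, 7.48 and 14.1 with BE + sgRNA. The 3 groups overlapped widely, and the sgRNA embryos had the lowest median. Against the mean of both controls the difference was 0.98 ± 0.41 (limma, unadjusted p = 0.0228, adjusted p = 0.362), and for Hspa1b it was 0.56 ± 0.25 (adjusted p = 0.402). None of the 10 genes was called (0.00805% of all genes), and 2 had an unadjusted p under 0.05 (11.6% of all genes). Against BE alone the Hspa1a difference was 0.46 ± 0.50 and against sgRNA alone 1.5 ± 0.50, so the choice of control moves it. The control groups themselves differed by 1.04 ± 0.56 (BE minus sgRNA, adjusted p = 0.633), in a contrast where all 10 heat shock genes were higher with BE, the median of all genes was 0.27 and 0.0% were called.

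The sum of Hspa1a and Hspa1b, which the split of shared reads does not touch, had a median of 10.5 FPKM in BE + sgRNA embryos and 4.91 in the 16 controls at 2C. The difference in mean log2(sum + 1) was 0.97 (3.39 ± 0.87 SD, n = 14, against 2.42 ± 1.38 SD, n = 16; two-sided permutation test with 100000 resamples, p = 0.0303, adjusted p = 0.0641 over 3 tests). Without the control embryo with a 4-cell header it was 0.88 (same permutation test, p = 0.0501, adjusted p = 0.0751). At 8C the medians were 1.27 and 1.26 FPKM (difference -0.11, p = 0.781). Controls at 2C were 0.93 above controls at 8C (p = 0.0427, adjusted p = 0.0641). Within the eBE run the editing difference at 2C was 1.23 in a permutation test of 6 against 11 embryos (adjusted p = 0.0364), and within the BE4 run 0.60 in 8 against 4 embryos (adjusted p = 0.554). The controls were 4 BE and 7 sgRNA embryos in the first case and 4 BE embryos in the second, and the sgRNA embryos had the lower Hspa1a median. These differences thus vary in both run and kind of control, which the tests do not separate.

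**Figure D5:**
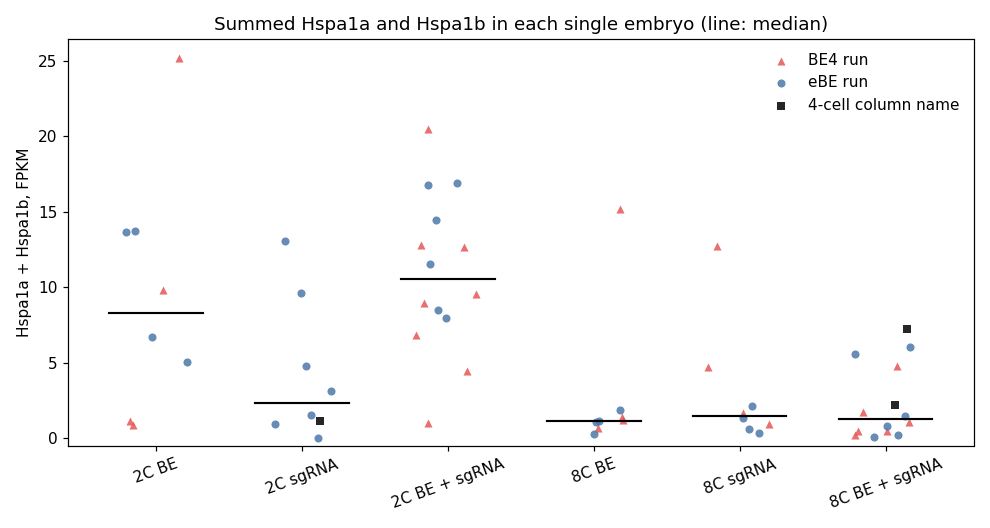
Summed FPKM of Hspa1a and Hspa1b in each single embryo by stage and injection (8, 8 and 14 embryos), with a line at the median and marker shapes for the run named in the file header. The 2C BE + sgRNA embryos have a median of 10.5, most 8C embryos lie near 1, and 1 BE, 2 sgRNA and 4 BE + sgRNA embryos at 8C lie above 4.

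At 8C the summed pair had like medians in edited and control embryos over both runs together. Its difference was 0.348 within eBE and -0.893 within BE4 (permutation test, adjusted p = 0.448 and 0.496), so the runs differed in direction. The lowest adjusted p among the 10 genes belonged to Hsp90aa1. It was at 322, 440.9 and 547.6 FPKM (lowest, median, highest) with BE alone, at 208, 374.8 and 545.3 with sgRNA alone and at 91.3, 261.1 and 432.3 with BE + sgRNA. The groups overlapped, with the edited embryos lower. The difference was -0.82 ± 0.24 (limma, unadjusted p = 0.00136, adjusted p = 0.217), and it was -0.57 ± 0.14 within eBE, -0.74 ± 0.39 within BE4 and -0.65 ± 0.23 without the 4-cell headers. None of the 10 genes was called (0.164% of all genes), and 1 had an unadjusted p under 0.05 (10.8% of all genes). Hsp90ab1 had medians of 1765 (BE), 1657 (sgRNA) and 1267 FPKM (BE + sgRNA; -0.38, adjusted p = 0.535). Summed oocyte transcripts were higher in these edited embryos, with a median of 83.7 against 32.0 and 28.2 FPKM, and their part in the Hsp90aa1 values was not tested. BE alone against sgRNA alone gave 0 calls (0.0%).

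The members varied together in different ways, given here as Pearson correlations of log2(FPKM + 1) with no test. Over the means of 22 groups, which share the stage contrast, Hsp90aa1 and Hsp90ab1 correlated at 0.978, Hspa8 and Hsp90ab1 at 0.984 and Hspa1a and Hspa1b at 0.838, while Hsf1 and Hsf2 stood at -0.772. Over the 30 single 2C embryos with their group means removed, which share library quality and depth, the same pairs gave 0.927, 0.777, 0.710 and 0.577. Hsf1 and Hsf2 thus had opposite signs between stages and among embryos of 1 stage. Hsph1 and Dnajb1 were at 0.633 over groups and 0.223 among embryos. The spread among 2C embryos (SD of log2(FPKM + 1), n = 30) was 1.19 for Hspa1a, larger than in 86.1% of 12420 genes, and 0.668 for Hspa1b, larger than in 24%. Within the runs these shares were 81% (eBE) and 91.8% (BE4) for Hspa1a, and 12% and 63.9% for Hspa1b.

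Of 9180 genes with a mean of at least 5 FPKM in at least 1 group, those most like Hspa1a over the 22 group means were 9930012K11Rik (r = 0.962), Gm13083 (0.943) and Gm11237 (0.940), and 147 genes had an r above 0.9. For Hspa1b they were Klhl11 (0.877), Gm2022 (0.872) and Taf3 (0.872), for Dnajb1 Akr1c21 (0.938), Ctgf (0.931) and Txndc12 (0.922), and for Hsph1 Mapk13 (0.810), Akap12 (0.807) and Senp3 (0.797). Among the 30 single 2C embryos with group means removed, Hspa1a was most like Cd59b (0.798), Gm10662 (0.747) and Fiz1 (0.737), and Hspa1b was most like Hspa1a itself (0.710), followed by Ppp1r15b (0.687) and B020031M17Rik (0.640).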

How the data were processed

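The 92 RNA-seq libraries of siRNA pools and single base edited embryos were analysed from the deposited FPKM values. Per the study's methods, the authors aligned reads with TopHat to mm9 and computed FPKM with Cufflinks on the refFlat annotation; whether reads mapping to several places were kept is not given in the sources used here. The values are scaled by transcript length and library, and the read counts behind them are unknown, so no counting interval is given. The study's own test needs counts. Here log2(FPKM + 1) was tested with limma 3.58.1 in R 4.3.3 (moderated with a trend), over genes with a mean of at least 1 FPKM in at least 1 group of the fit, with Benjamini-Hochberg adjustment over all genes tested and calls at an adjusted p under 0.05. The procedure was tested on simulated data. Summed Hspa1a and Hspa1b values were compared by permutation in scipy 1.17.1 (100000 resamples).

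Samples were grouped by the labels. Fits held the groups of 1 experiment, except the NC pools from 2C to 8C, which join experiments. The 10 genes, the lists around them and the tests were chosen with earlier results of these data known. All 10 are named in every comparison, and of each other list at most the 2 called genes with the largest change per comparison. Genes of like pattern are the 3 with the highest Pearson r. Alternatives changed the pseudocount (0.1), the filter (none, or 5 FPKM), the scaling (median ratios, quantiles), the call limits (adjusted p under 0.01 and a log2 change of at least 2, as in the study's methods), the libraries and runs left out, the control group and a replicate block. The labels do not say what a replicate number shares. In the 3KD experiment all 20 pairs of same-numbered pools deviated together (lowest r 0.278), so its blocked values are given. With 2 pools a group the deviations from the group mean mirror each other, so the pairs of number 2 repeat those of number 1. Gene positions are from the GENCODE annotation of NCBIM37 (mm9) and promoters from RefSeq.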

Additional observations from a re-analysis of the deposited data

Results flagged for a closer look

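In 4 groups of 8 single embryos, each of the 10 genes was searched for an embryo far from the rest of its group (Dixon's ratio of gap to range), and 4 of 40 searches found one, where chance alone gives about 1 in 20. The 8C embryo BE replicate 3 had 11.9 FPKM of Hspa1a, the other 7 having 0 to 1.38, and 3.30 FPKM of Hspa1b, the others having 0.102 to 0.721. The genes can share reads, so these values are not independent. The 8C embryo sgRNA replicate 7 had 6.86 FPKM of Hspa1a, the others having 0.113 to 1.41. Both embryos belong to the BE4 run, and their Hspa1a values are above the median of single 2C embryos (6.31). The 8C embryo BE replicate 7, of the eBE run, had the lowest Dnajb1 at 16.6 FPKM, the others having 38.9 to 74.0.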

How the results depend on the processing

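Of 28 calls of a heat shock gene in the 4 stage contrasts, 28 kept their direction under every alternative. Of these, 19 also stayed called under every alternative with the same call rule, which leaves out the study's stricter limits. Lost calls were Hspa1a in single controls (pseudocount 0.1, quantile normalization, within BE4), Dnajb1 in single controls (both other scalings, within BE4) and Hspa1b in edited embryos (quantile normalization, within BE4). Single controls within BE4 were BE embryos alone, 4 at each stage. In NC pools from 2C to 4C, Hspa1a was lost with the smaller pseudocount and without either 2C pool or 4C pool 2, Hsp90aa1 with quantile normalization or without 4C pool 1, and Hsp90ab1 with quantile normalization. From 2C to 8C, Hspa1b was lost with quantile normalization, Hsf1 without 2C pool 1 or single KD NC pool 2, and Hsf2 without 2C pool 2. Of 202 pairs of gene and comparison without a call, 5 were called under some alternative (Hspa1b and Hsph1 in single controls within eBE, and Hspa5, Hsf1 and Hsf2 from 2C to 4C). With the study's limits 3 of the genes were called in single controls, 5 in edited embryos, 2 from 2C to 4C and 4 from 2C to 8C in NC pools. The sum of Hspa1a and Hspa1b differed within the eBE run by 1.23 between edited and control embryos at 2C (permutation test, adjusted p = 0.0364), by 0.348 at 8C and by 1.5 between 2C and 8C controls (adjusted p = 0.0215). Within the BE4 run the same differences were 0.598, -0.893 and 0.564 (same test, adjusted p = 0.554, 0.496 and 0.554). Of 728 counts of called genes on the other lists in the stage contrasts, 104 moved by over 1.5 times, 37 of them under the study's limits. The cause was not tested.

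Quantile normalization moved the all-gene median in single controls from -0.31 to -0.01 and the split of calls from 3753 higher and 5668 lower to 4540 and 4341; in edited embryos it went from 3341 and 5030 to 4245 and 3932, in NC pools from 2269 and 3403 to 2600 and 2511 (2C to 8C) and from 1364 and 2073 to 1336 and 1341 (2C to 4C). In the 8C Nr5a2 KD 36 genes were called higher and 243 lower, and 90 and 207 with median-ratio scaling. The total of 279 fell to 113 with no filter on low values, to 29 and 6 without NC pool 1 or 2, and to 125 without Nr5a2 KD pool 2.

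With a replicate block 0 of the 10 genes were called in any knockdown comparison. Pools of the same number deviated together in the 3KD experiment (r 0.278 to 0.513 over 20 pairs, those of number 2 repeating those of number 1). They did so less in the single knockdowns (-0.04 to 0.14), in the 2C pools (0.0043) and in 4KD (-0.30 to 0.35). In 3KD the block raised the calls over all genes from 6, 1 and 0 to 45, 35 and 65 with Rarg, Nr1h3 or Nr2c2 spared, and from 30 to 262 for Nr5a2 spared against the other 3KD, where leaving out any 1 of the 8 3KD pools gave 0 to 2. Crossing the numbers in 4KD, added after seeing the data, gave 0 calls among the 10 genes.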
